A study of Drosophila melanogaster with 3 samples.

Results

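The regions described here are 527 ChIP-seq peaks whose summit, the base of highest signal, lay 0 to 500 bp downstream of the nearest transcription start site (TSS) of a protein-coding gene, read in the direction of transcription. They were taken by position alone from the 3545 peaks that the authors held to be reproducible between replicates (the optimal list), of which they made up 14.9%. Of the 1757 optimal summits within 500 bp of a TSS, these 527 lay downstream and 1230 upstream. The comparison set was the 3612 summits at the same positions in the authors' longer list from the pooled replicates that were not in the optimal list. The optimal list consisted of the 3545 highest signals of the pooled list, so the signal separates optimal from other summits by construction. Between those groups it is only described. Of the 4139 pooled summits in the window, 12.7% were optimal.

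The study used whole fruit fly embryos of mixed sex, aged 0 to 24 h, from a transgenic Drosophila melanogaster line that carries a GFP tag at the C-terminus of a protein. The labels name that protein in more than 1 way, as CG45071 in the notes and as CG6854 and CTPsyn in the strain and antibody fields, so it is called the tagged protein here. Chromatin was sheared by sonication to 200 to 800 bp and immunoprecipitated with an antibody to GFP. There was 1 group of 3 samples labelled as biological replicates and no second genotype or treatment. The labels do not give the transgene's promoter or the cells that express it, and a peak in whole embryos cannot tell a strong signal in few cells from a weak signal in many. No member lay at Ctps or at CG45071.

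A summit just downstream of a TSS falls in the stretch where RNA polymerase II starts and often pauses before it elongates. This stretch holds the downstream parts of the core promoter (the initiator over the start and the downstream promoter element, DPE, behind it), and then the 5' untranslated region or, in many genes, the first intron. Housekeeping genes of flies often use promoters with other elements, such as Motif 1, which is bound by M1BP, and ribosomal protein genes start within a polypyrimidine initiator. The TATA box, bound by TBP, usually lies upstream of the start.

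The bases under some of the strongest members are shown first because such peaks carry the highest signals downstream of a start. CG11309 to CG9147 are the highest in order, and mRpL23 (rank 154) was added out of order. Among members between them, RpS27 (rank 95), tank (rank 101) and CG8360 (rank 118) are left out here. In the 30 bases over the summit, G and C made up 53.3% at RpS27 and at tank, with longest A and T runs of 4. They made up 26.7% at CG8360, with a run of 6, and 23.3% at mRpL23, with a run of 11. All coordinates are dm6, and each sequence is written 5' to 3' in the direction of the gene and comes from the RefSeq Release 6 genome. Capitals mark the longest unbroken run of A and T bases within the printed stretch, or the first where runs are equally long, as at CG11309.
CG11309, chr3L:21304558-21304587, minus strand: ATTTATgaaatcaaaggctgatgatttaag
PNPase, chr3R:31404653-31404682, minus strand: aagtctcaagaaacgtacagggcTTTTATT
Chro, chr3L:22878880-22878909, minus strand: gttagTTTAAAgctatcgacaggcaataca
ph-p, chrX:2137936-2137965, minus strand: aacTTAATAAATcaactcaatacgtatgtc
CG9147, chr2L:6066104-6066133, plus strand: aagttaacAATATAATcagattgagtactg
mRpL23, chr3L:2373605-2373634, minus strand: aaaagtggtaaaagtgtggAATATTTTATA

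Longer stretches, 50 bp on either side of the summit, are given for 2 strong members with the summit in a first intron. The longest A and T run is again in capitals.
scramb2, chr3L:3046387-3046487, minus strand: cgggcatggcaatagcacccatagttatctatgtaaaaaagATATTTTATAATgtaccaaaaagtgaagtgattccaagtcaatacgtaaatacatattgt
Fer2LCH, chr3R:30388407-30388507, plus strand: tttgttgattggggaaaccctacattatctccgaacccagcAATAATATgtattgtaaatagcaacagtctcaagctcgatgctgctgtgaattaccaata

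The next 3 sequences show the Motif 1 core, in capitals, near the summits of the 3 strongest members that carry it, all of them ribosomal protein genes.
RpL30, chr2L:19009261-19009290, minus strand: atccccccgtcGGTCACACcaacacaaacg
RpL37A, chr2L:5070979-5071008, plus strand: tatcgagcggcGGTCACACttttcgctctt
RpL27A, chr2L:4458330-4458359, minus strand: cgccgccgggcGGTCACACtgctacaaccg

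At RpL30 the middle of the motif lay at the summit itself, 31 bp downstream of the TSS. At RpL37A it lay 18 bp beyond the summit, and at RpL27A it lay upstream of both the summit and the TSS.

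CA repeats, in capitals, are shown for the strongest member that carries one and for an intronic member, where the repeat reads GTGTGTG along the gene. The RpS27 repeat lay 79 bp before the summit and 63 bp upstream of the TSS. The dbo repeat lay 90 bp before the summit and 274 bp downstream of the TSS. Of all matches to the CA repeat in members, 5.24% lay upstream of the TSS.
RpS27, chr3R:25247563-25247592, minus strand: gaactcaagcaaCACACACtccagtattgg
dbo, chr3L:15827152-15827181, plus strand: gtgtgtgGTGTGTGcttgtgggtggaccag

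The strongest members were spread over genes of many kinds. CG11309 had the highest signal of all members and ranked 12 in the pooled list (peak at chr3L:21304407-21304732, summit 85 bp downstream of the TSS, in a first intron). It ranked 15 in replicate 1, 13 in replicate 2 and 9 in replicate 3, and its 3 replicate summits lay within 3 bp of each other. PNPase, which encodes a polynucleotide phosphorylase that degrades RNA, ranked 13 in the pooled list, and 19, 11 and 19 in replicates 1, 2 and 3 (chr3R:31404490-31404822, 72 bp downstream, 5' untranslated region). Chro, which encodes the chromatin protein Chromator, ranked 15, and 17, 14 and 20 in the replicates (chr3L:22878739-22879076, 89 bp downstream, 5' untranslated region). These 3 members were the only ones among the first 20 peaks of the pooled list.

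The next member was ph-p, which encodes a subunit of Polycomb repressive complex 1, at rank 29 and at ranks 24, 23 and 23 in the replicates (chrX:2137687-2138091). Its summit lay 420 bp downstream of the TSS, far beyond the median position. CG9147 followed at rank 55 (chr2L:6065962-6066262, 32 bp), scramb2, which encodes a phospholipid scramblase, at rank 89 (chr3L:3046273-3046581, 375 bp), and RpS27, a protein of the small ribosomal subunit, at rank 95 (chr3R:25247365-25247669, 16 bp). Fer2LCH, the ferritin light chain gene, ranked 135 (chr3R:30388239-30388674, 181 bp), and mRpL23, a mitochondrial ribosomal protein gene, ranked 154 (chr3L:2373479-2373733, 58 bp).

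All of the 15 strongest members were among the 250 highest signals of every replicate, and the lowest of these ranks was 248, for mRpL23 in replicate 3. Of the 15, 10 lay in 5' untranslated regions, 5 in first introns and none in a coding exon. Their replicate summits lay a median of 18 bp and at most 64 bp apart. The signal of a list is comparable within that list only: over these 15 members it ran from 115 to 274 in replicate 1, from 217 to 566 in replicate 2 and from 167 to 461 in replicate 3.

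**Figure D1:**
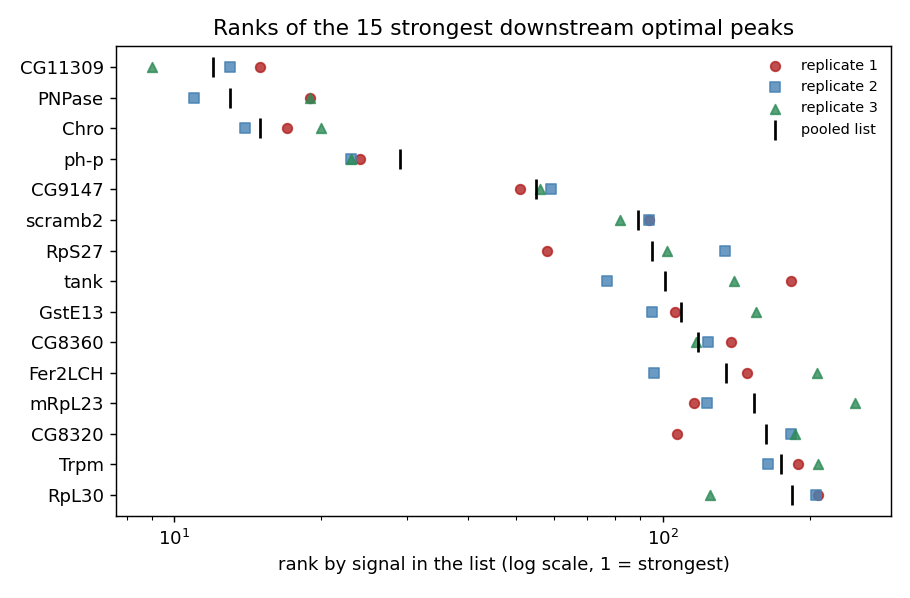
Ranks by signal (log scale, 1 = strongest) of the 15 strongest downstream optimal peaks in each replicate's own list and in the pooled list (black bars), 1 row per gene. The first 4 genes stay within the first 30 ranks of every list, and the remaining 11 stay within the first 250.

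The members crowded towards the start. Within the first 100 bp lay 288 members (54.6%) and 38.5% of the other downstream summits (log2 odds ratio 0.95, 95% interval 0.68 to 1.21, adjusted p = 1.54e-11, Fisher's exact test with Benjamini-Hochberg adjustment over 5 bins). Between 101 and 200 bp the shares were 24.3% of the members and 23.9% of the others (log2 odds ratio 0.04, 95% interval -0.27 to 0.34, exact adjusted p = 0.827). Members were less frequent in each of the bins beyond: 8.16% against 16.1% at 201 to 300 bp (exact adjusted p = 1.16e-06), 6.64% against 11.8% at 301 to 400 bp (exact adjusted p = 0.00045) and 6.26% against 9.66% at 401 to 500 bp (exact adjusted p = 0.0124). The median position was 90 bp for the members and 145 bp for the others. These tests, like all below, compare lists of regions drawn from the same 3 libraries, not embryos, and their intervals cover counting error only.

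**Figure D2:**
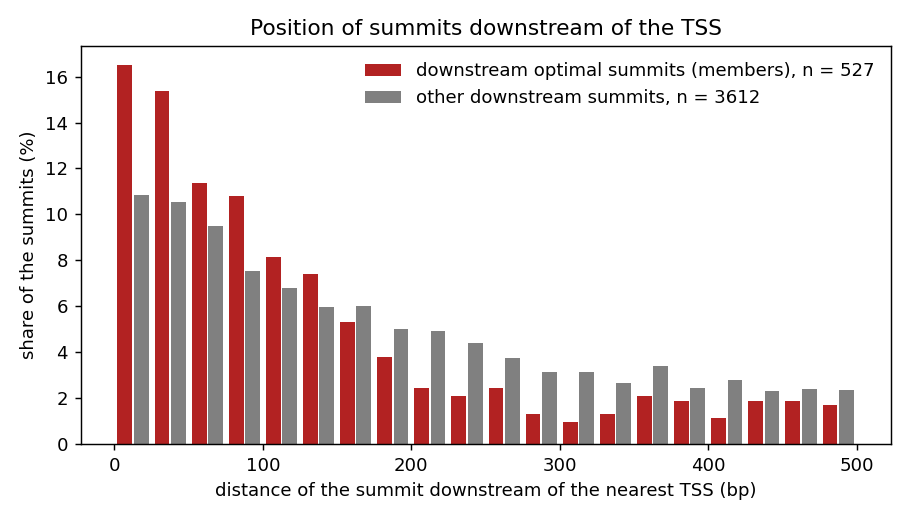
Share of summits (%) in 25 bp bins of distance downstream of the TSS, for 527 members (red) and 3612 other downstream summits (grey). The members reach 16.5% in the bin nearest the TSS, against 10.9% of the others, and fall below the others from about 150 bp on.

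The bins far from the start depended on the comparison set. With only the 1274 comparison summits among the first 10000 pooled ranks, the log2 odds ratio for the first 100 bp was 0.40 (exact adjusted p = 0.0208), and the bins at 301 to 400 bp (-0.41, exact adjusted p = 0.258) and 401 to 500 bp (0.19, exact adjusted p = 0.724) no longer passed. The call at 401 to 500 bp was also lost with the stronger 264 members (-0.43, exact adjusted p = 0.288). It was lost too without replicate 1 (-0.61, exact adjusted p = 0.0741), replicate 2 (-0.48, exact adjusted p = 0.188) and replicate 3 (-0.51, exact adjusted p = 0.149). Leaving out these replicates cut the members to 326, 300 and 292, against the same 3612 pooled summits. A call can therefore be lost through the smaller number of members alone. The pooled and optimal lists, made from all 3 replicates, stayed as they were, so no replicate's data were removed from them. Signal did not fall steadily with distance among the members. The median pooled signal was 160 in the first 100 bp, 152 at 101 to 200 bp, 143 at 201 to 300 bp, 151 at 301 to 400 bp and 177 at 401 to 500 bp, and the last bin held ph-p with 1011.

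At the near end of the window RpS16 (chr2R:22605909-22606344) had its summit on the annotated TSS itself, at 0 bp, and RpL27A (chr2L:4458098-4458533) at 1 bp. At the far end CG8128 (chrX:15697890-15698109) and sstn (chr3L:15094002-15094437) both lay at 499 bp. The first optimal summits beyond the window belonged to CG33725 at 508 bp and pAbp, which encodes the poly(A)-binding protein, at 511 bp. By signal, the last members inside the optimal list were jagn (113.79) and RhoGAP16F (113.75), and the first downstream summits outside it were Ubc6 (113.684) and RpL6 (113.673).

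Most members lay in transcribed but untranslated sequence. A 5' untranslated region was under 392 members (74.4%) and 61.1% of the other downstream summits (log2 odds ratio 0.88, 95% interval 0.59 to 1.18, adjusted p = 4.72e-09, Fisher's exact test). A coding exon was under 21 members (3.98%) and 19.2% of the others (log2 odds ratio -2.48, 95% interval -3.12 to -1.85, exact adjusted p = 5.51e-22). A first intron was under 111 members (21.1%) and 18.9% of the others (log2 odds ratio 0.20, 95% interval -0.13 to 0.52, exact adjusted p = 0.395). Only 3 members lay in a later intron.

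**Figure D3:**
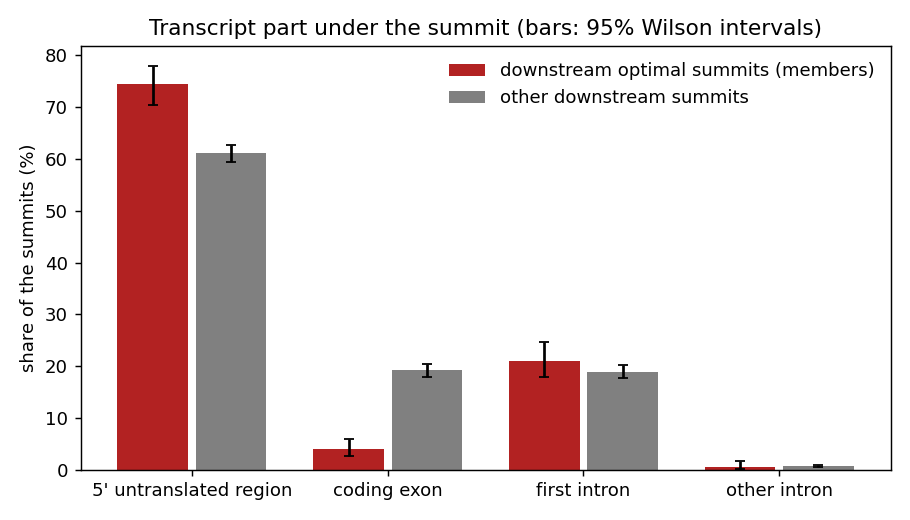
Share of summits (%) by the transcript part under them, with 95% Wilson intervals, for the members (red) and the other downstream summits (grey). Coding exons hold 3.98% of the members, against 19.2% of the others, and the intervals for first introns overlap.

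The transcript part went with the distance. Of the 288 members within 100 bp, 265 lay in a 5' untranslated region, and of the 1390 other summits there 1286 did. In that bin neither the 5' untranslated region (log2 odds ratio -0.12, exact adjusted p = 1) nor the coding exon (-1.06, exact adjusted p = 0.177) passed the test. The call for the 5' untranslated region was also lost against comparison summits among the first 10000 pooled ranks (0.08, exact adjusted p = 0.851), while that for coding exons held at -1.27 (exact adjusted p = 0.000447). The median position was 61.5 bp for members in 5' untranslated regions, 179 bp for those in coding exons and 259 bp for those in first introns.

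Genes with members more often had alternative starts close by. Another annotated TSS of the same gene lay within 500 bp of the one assigned for 182 members (34.5%) and 20.1% of the other downstream summits (log2 odds ratio 1.07, 95% interval 0.79 to 1.35, adjusted p = 5.69e-12, Fisher's exact test). The log2 odds ratio was 1.03 among summits within 100 bp of the TSS (exact adjusted p = 9.44e-07) and 1.04 among those in 5' untranslated regions (exact adjusted p = 1.37e-08). Among the 264 members with the stronger signals it was 1.57 (exact adjusted p = 5.2e-15). Upstream optimal summits had such a second TSS in 18.3% of cases, which was also below the members (log2 odds ratio 1.24, exact adjusted p = 1.09e-12).

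The peak interval itself reached the TSS for 409 members (77.6%) and 65.9% of the others (log2 odds ratio 0.84, adjusted p = 1.01e-07, Fisher's exact test). The interval was 436 bp wide for 470 of the 527 members, and the result changed with the summits compared. The call was lost among summits within 250 bp (log2 odds ratio 0.21, exact adjusted p = 0.564) and against the first 10000 pooled ranks (0.11, exact adjusted p = 0.676). Among summits within 100 bp it turned round and passed, with members less often reaching the TSS (-5.75, exact adjusted p = 0.000362). A 436 bp interval with its summit in the middle always reaches a TSS that close. Only narrower peaks can miss it there, so this large odds ratio rests on peak width in the narrower peaks alone. A protein-coding TSS on the opposite strand lay within 500 bp upstream for 146 of the 527 members (27.7%) and 939 of the 3612 others (log2 odds ratio 0.13, 95% interval -0.17 to 0.42, exact adjusted p = 0.533). It was more frequent at members than at upstream optimal summits, with 27.7% against 20.2% (log2 odds ratio 0.60, 95% interval 0.26 to 0.94, exact adjusted p = 0.000978). Each summit went to its nearest TSS, so a start close upstream shortens the stretch open to upstream summits but not to downstream ones. This difference is therefore partly set by the assignment, and the size of that part was not tested. An upstream optimal summit stood at the same TSS for 26 members (4.93%) and 5.54% of the others (log2 odds ratio -0.15, 95% interval -0.75 to 0.45, exact adjusted p = 0.681), and a small RNA gene lay within 250 bp of 3 members.

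Next to the other downstream summits, the members held more TATAAA and fewer Ttk69 cores. Of 24 motifs looked for on either strand in the 201 bp around the summit, 2 passed, which is 8.33%. TATAAA, the TATA box, occurred at 124 members (23.5%) and 15.8% of the others (log2 odds ratio 0.72, 95% interval 0.40 to 1.04, adjusted p = 0.000239, Fisher's exact test over the 24 motifs). Its matches in members lay a median of 83 bp downstream of the TSS, and 21.3% of them lay upstream of it. AGGAC or AGGATAA, the core bound by the zinc finger protein tramtrack (Ttk69), occurred at 45 members (8.54%) and 18.4% of the others (log2 odds ratio -1.26, 95% interval -1.71 to -0.80, exact adjusted p = 7.3e-08). Against the upstream optimal summits the Ttk69 core did not pass (log2 odds ratio -0.24, 95% interval -0.76 to 0.27, exact adjusted p = 0.475).

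Both motifs were read again among summits within 100 bp of the TSS. There the TATA box gave a log2 odds ratio of 0.64 (exact adjusted p = 0.0607) and the Ttk69 core gave -1.09 (exact adjusted p = 0.0245). Among windows with 35% to 50% G and C, the TATA box gave 0.36 (exact adjusted p = 0.546) and the Ttk69 core -0.91 (exact adjusted p = 0.03). Several elements that are well known in fly promoters did not pass: the GAGA core GAGAG, bound by GAGA factor, with 28.3% against 26.1% (log2 odds ratio 0.16, 95% interval -0.13 to 0.46), the initiator forms TCAGTT and TCAGTC with 22.2% against 21.4% (0.07, 95% interval -0.25 to 0.39), and the DPE, searched as AGACG and in the forms GGACG and AGTCG, with 50.7% against 54.9% (-0.25, 95% interval -0.51 to 0.02). The Dref element TATCGATA, whose letters include the BEAF core CGATA, occurred at 14 members (2.66%) and 2.05% of the others (0.42, 95% interval -0.40 to 1.25).

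**Figure D4:**
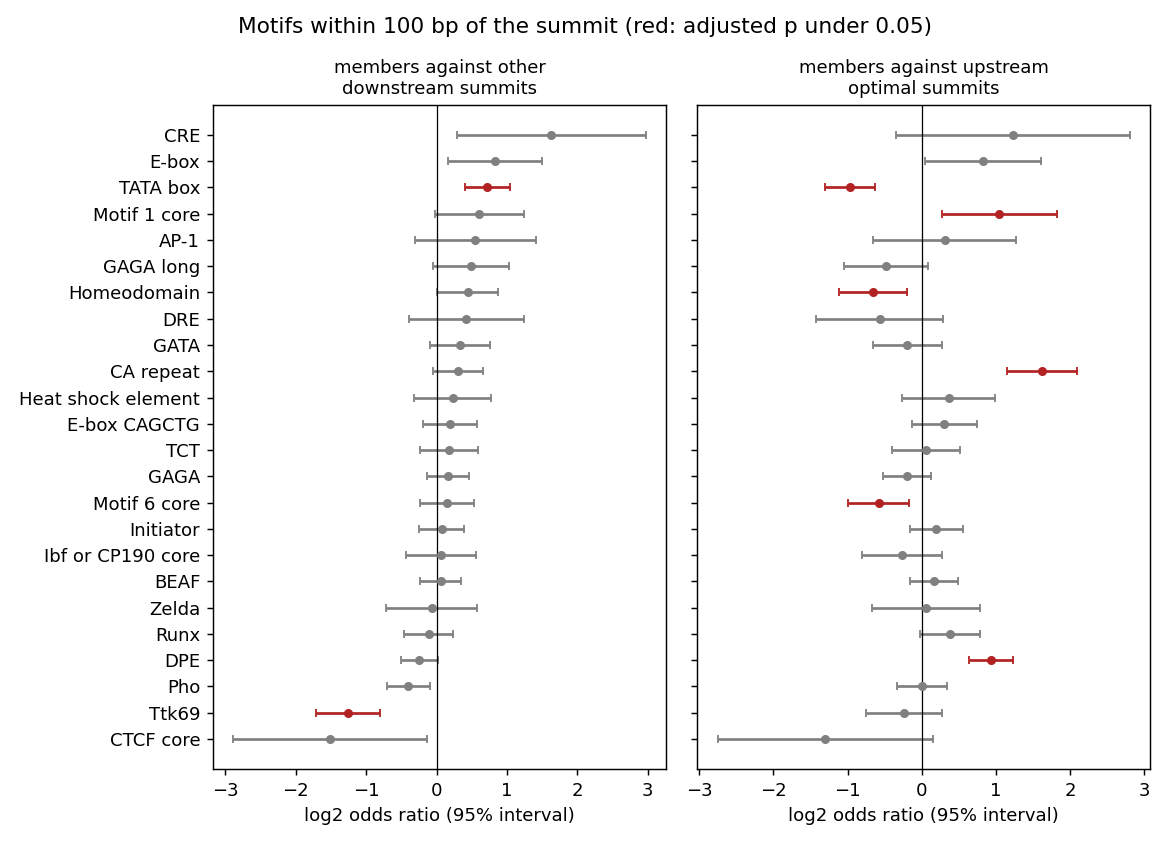
Log2 odds ratio with its 95% interval for each of 24 motifs, comparing members with the other downstream summits (left) and with the upstream optimal summits (right). Red points passed an adjusted p of 0.05: the TATA box was higher at members on the left (0.72) and lower on the right (-0.97).

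Over all 6-mers the members were richer in A and T. Of 2080 6-mers counted together with their reverse complements, 123 passed, which is 5.91%, with 48 more frequent at members and 75 less frequent. Of the 48, 46 had at most 2 G or C bases, and they were led by TAAATA, at 33.4% of the members and 21.7% of the others (log2 odds ratio 0.85, adjusted p = 2.25e-05, Fisher's exact test over the 2080). Of the 75, 73 had at least 3 G or C bases, and they were led by AGGAGC, at 3.23% of the members and 9.77% of the others (-1.66, exact adjusted p = 7.65e-05). AGGAGC holds neither form of the Ttk69 core, and nor does CAGGAG (-1.86, exact adjusted p = 9.37e-05). GAGGAC, which holds AGGAC, was lower as well (-1.76, exact adjusted p = 0.00343). Whether the lower share of the Ttk69 core is particular to that core was not tested. Within 100 bp of the TSS, 1 of the 2080 passed by Fisher's exact test (GCCCAA, less frequent at members), and 131 had an unadjusted p under 0.05. Within 5' untranslated regions 0 passed and 146 had an unadjusted p under 0.05, and within first introns 0 passed and 148 had one. Against comparison summits among the first 10000 pooled ranks 6 passed, and among windows with 35% to 50% G and C 0 passed, with 146 at an unadjusted p under 0.05.

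A run of 10 or more A or T bases, a test added after the 6-mers were seen, stood within 100 bp of 249 members (47.2%) and 39.2% of the other downstream summits (log2 odds ratio 0.48, 95% interval 0.21 to 0.74, adjusted p = 0.000848, Fisher's exact test over 5 comparisons). This call was lost against the first 10000 pooled ranks (0.23, exact unadjusted p = 0.131) and within 250 bp of the TSS (0.10, exact unadjusted p = 0.498). The sign turned, without passing, within 100 bp of the TSS (-0.069, exact unadjusted p = 0.745) and among windows with 35% to 50% G and C (-0.16, exact unadjusted p = 0.354). Among first-intron summits a run stood at 70 of 111 members (63.1%) and 44.7% of the 683 others (log2 odds ratio 1.07, 95% interval 0.48 to 1.67, exact adjusted p = 0.000816). Among summits in 5' untranslated regions the shares were 43.9% of the members and 43.9% of the others (log2 odds ratio 0.00, 95% interval -0.31 to 0.31, exact adjusted p = 1). The log2 odds ratio in first introns exceeded that in 5' untranslated regions by 1.07, with a 95% interval of 0.40 to 1.74. The median positions of the first-intron summits were 259 bp for members and 270 bp for the others.

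The intronic members had their lowest G and C content just beyond the summit. Their median G and C content within 100 bp was 38.3%, against 42.3% for other first-intron summits. In 20 bp bins the highest value was 46.1% about 110 bp before the summit, with 43.9% and 42.2% in the bins beside it. The lowest was 33.2% about 50 bp beyond the summit, with 35.7% and 38.1% in the bins beside it. In the same bin beyond the summit the other first-intron summits had 42.9%, and these values were not tested. Members in 5' untranslated regions had a median of 44.8%, against 45.3% for the others there. The longest A and T run of any member stood at Pgk, the gene of the glycolytic enzyme phosphoglycerate kinase, with 45 bases (chr2L:2748728-2749163, 367 bp downstream). E(z), the histone methyltransferase gene of Polycomb repressive complex 2, had a run of 33 bases (chr3L:10637994-10638110, 90 bp downstream), and Hr78, a nuclear receptor gene, one of 24 (chr3L:21496922-21497357, 43 bp downstream). All 3 summits lay in first introns, but these were not the 3 longest runs. RIC-3 had one of 38 bases, also in a first intron. Members in 5' untranslated regions had long runs too, among them Bhmt with 26 bases and PIG-Q with 25.

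**Figure D5:**
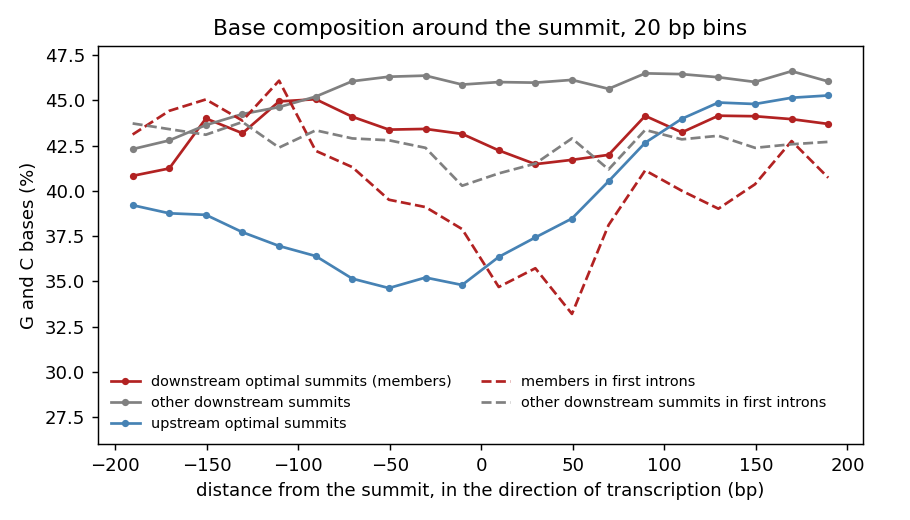
G and C bases (%) in 20 bp bins around the summit, read in the direction of transcription, for members, other downstream summits and upstream optimal summits, with the first-intron summits of the members and of the other downstream summits dashed. The intronic members drop to 33.2% about 50 bp beyond the summit, against 42.9% for the other intronic summits there, the other downstream summits stay between 42.3% and 46.6%, and the upstream optimal summits lie at 34.8% just before theirs.

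The members held fewer long A and T runs, more CA repeats and fewer TATA boxes than the upstream optimal summits. The median G and C content within 100 bp was 44.3% for the members and 35.3% for the upstream optimal summits, and a long A and T run stood at 47.2% against 69.5% (log2 odds ratio -1.35, adjusted p = 1.19e-17, Fisher's exact test over 5 comparisons). Of the 24 motifs 6 passed, which is 25%. The CA repeat CACACAC occurred at 16.5% of the members and 6.02% of the upstream optimal summits (log2 odds ratio 1.62, 95% interval 1.15 to 2.10, exact adjusted p = 6.91e-10). The DPE forms occurred at 267 members (50.7%) and 430 of the 1230 upstream summits (0.93, 95% interval 0.63 to 1.23, exact adjusted p = 1.38e-08), and the Motif 1 core GGTCACAC at 4.74% against 2.36% (1.05, 95% interval 0.27 to 1.83, exact adjusted p = 0.0407). Lower at members were the TATA box with 23.5% against 37.6% (-0.97, exact adjusted p = 4.87e-08), the homeodomain core TAATTA with 10.4% against 15.6% (-0.66, exact adjusted p = 0.024), and the Motif 6 core GGTATA or GGTATT with 13.7% against 19.2% (-0.58, exact adjusted p = 0.024). The calls of the last pair and of Motif 1 were not stable. Some alternatives also held fewer summits: 326, 300 and 292 members and 895, 820 and 839 upstream summits without replicates 1, 2 and 3. A call can be lost through these smaller numbers alone. The Motif 6 call held with 1 TSS per gene and was lost under every other alternative run, among them the stronger 264 members (exact adjusted p = 0.213), each replicate left out in turn (exact adjusted p = 0.454, 0.140 and 0.0932 without replicates 1, 2 and 3) and 200 bp of sequence (-0.014, exact adjusted p = 0.955). The TAATTA call was lost, among others, with the stronger members (exact adjusted p = 0.130), without replicate 3 (exact adjusted p = 0.134) and at 35% to 50% G and C (-0.047, exact adjusted p = 1). The Motif 1 call was lost without replicate 1 (exact adjusted p = 0.124), within 250 bp of the TSS (exact adjusted p = 0.0854), with 50 bp of sequence (0.49, exact adjusted p = 0.801) and at 35% to 50% G and C (0.56, exact adjusted p = 0.474). At 35% to 50% G and C the DPE forms (0.38, exact adjusted p = 0.32) and the TATA box (-0.46, exact adjusted p = 0.315) did not pass either. The other downstream summits held CACACAC at 13.8% and the DPE forms at 54.9%.

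Many of the 6-mers that were more frequent downstream of the TSS contained CG. Of the 2080 6-mers 369 passed, which is 17.7%, with 218 more frequent at members, and 166 of these 218 contained the dinucleotide CG, against 604 of all 2080. ACGCGA stood at 74 members (14.0%) and 4.07% of the upstream optimal summits (log2 odds ratio 1.94, adjusted p = 7.9e-10, Fisher's exact test over the 2080), and the other downstream summits held it at 11.4%. ACACAC, a shorter CA repeat, stood at 24.9% against 12.2% (1.25, exact adjusted p = 2.62e-08). The 151 that were less frequent at members were led by ATTTAA, at 26.8% against 46.0% (-1.22, exact adjusted p = 4.88e-11). Where both sides were limited to summits within 100 bp of the TSS (288 members and 380 upstream summits), 0 motifs and 0 6-mers passed by Fisher's exact test, with 4 motifs and 161 6-mers at an unadjusted p under 0.05, and the TATA box gave a log2 odds ratio of -0.01.

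Members were less often among the strongest peaks than the upstream optimal summits. Among the 500 highest signals of the pooled list were 38 members (7.21%) and 266 upstream optimal summits (21.6%; log2 odds ratio -1.81, 95% interval -2.32 to -1.30, unadjusted p = 9.04e-15, Fisher's exact test). This test was outside the planned comparisons and belongs to no adjusted family. The median pooled signal was 156 for members and 185 for upstream optimal summits. A summit of each replicate lay within 200 bp for 503 members, and the replicate summits then lay a median of 71 bp apart, against 58 bp for upstream optimal summits. All 3 replicates had a matched peak among their own 3545 highest signals for 243 members (46.1%, 95% Wilson interval 41.9% to 50.4%) and for 748 upstream optimal summits (60.8%, 58.1% to 63.5%). The match, here and for the distances, was the strongest peak within 200 bp and could be a neighbour.

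The side of the TSS was not fixed for every member. For 126 members at least 1 replicate had its matched summit upstream of the TSS, and for 378 all 3 replicates had it downstream. The match was each replicate's strongest peak within 200 bp, so a stronger neighbour could stand in and enter these counts. The second scramb2 member (rank 1689, 176 bp), for example, took the ranks 94, 94 and 82 of its stronger neighbour. RpS27 is an example near the start, with replicate summits at 1, 14 and -1 bp, as is ctp, the dynein light chain gene, with -13, 26 and 26 bp (chrX:4688011-4688446). The replicate summits lay farthest apart at BtbVII, 170, 206 and -117 bp in replicates 1, 2 and 3 (chr3L:3148926-3149361), at CG14042, -160, 151 and 37 bp (chr2L:5037518-5037953), and at Tmep, 89, 343 and 108 bp (chr3L:1569138-1569573). eEF2, a translation elongation factor gene, had all 3 at 4 bp (chr2L:21681894-21682329). Ranks ranged most at the gene named a, with 3440, 2102 and 28009 in replicates 1, 2 and 3, at RhoGAP18B, with 27411, 6467 and 1645, and at ApepP, with 3248, 1526 and 22378.

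The same contrasts were read in each replicate's own list, with its 3545 highest signals set against the rest of that list. Of the summits within 500 bp of a TSS, 32.0%, 30.2% and 33.8% of the top summits lay downstream in replicates 1, 2 and 3, against 49.7%, 51.0% and 50.7% of the rest. The mean was 32.0% ± 1.78 in the top lists and 50.5% ± 0.637 in the rest (SD, n = 3), a difference of -18.5 ± 2.02 percentage points. Among the downstream summits, 50.6% ± 1.69 of the top and 35.7% ± 0.705 of the rest lay within 100 bp, and 4.22% ± 0.677 against 21.6% ± 0.4 lay in coding exons. TATAAA stood at 21.6% ± 1.87 against 15.8% ± 0.4, the Ttk69 core at 11.6% ± 1.63 against 18.7% ± 0.722, and a long A and T run at 46.7% ± 1.83 against 38.2% ± 1.16. Each of these differences had the same sign in 3 of 3 replicates. A two-sided exact sign-flip test over the 3 paired differences, added after the values were seen, gave p = 0.25 for each, which is the smallest p that 3 pairs can give, and the pooled list was made from the same replicates.

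The 527 members belonged to 505 genes, of which 484 had 1 member, 20 had 2 and 1 had 3. The gene with 3 was Eip75B, an ecdysone-induced nuclear receptor gene, with summits 50, 101 and 118 bp downstream of 3 different starts. They ranked 266 (chr3L:17999735-17999955), 1114 (chr3L:17971120-17971555) and 3108 (chr3L:17961478-17961913). The counts by gene list below are descriptions without a test, and they stand beside 505 of all 3374 protein-coding genes with a pooled summit in the window, which is 15%.

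Genes for cytoplasmic ribosomal proteins had a member at 29 of the 48 with a pooled summit in the window (60.4%, 95% Wilson interval 46.3% to 73.0%). Frequent optimal peaks were not particular to the downstream side: 37 of the 93 genes on this list had an upstream optimal summit, against 1121 of all 13945 protein-coding genes. Of their 31 members 28 lay within 100 bp, at a median of 31 bp, against 288 of 527 and 90 bp over all members. The strongest were RpS27 (rank 95), RpL30 (rank 184, chr2L:19009109-19009368, 31 bp) and RpS4 (rank 193, chr3L:13041657-13041957, 18 bp). Mitochondrial ribosomal protein genes had 1 of 18, mRpL23. Translation initiation and elongation factor genes had 4 of 16, with the strongest members at eIF3h (rank 867, 213 bp, and rank 1974, 13 bp, which share the same summit in replicate 3) and eEF2 (rank 1538, 4 bp).

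Genes of insulin and TOR signalling and growth control had a member at 13 of 25 (95% Wilson interval 33.5% to 70.0%). They included Thor, which encodes the translation repressor 4E-BP (rank 761, chr2L:3478229-3478664, 13 bp), Mer, a growth suppressor of the Hippo pathway (rank 843, chrX:19693322-19693478, 104 bp), and chrb, an inhibitor of TOR signalling (rank 1214, chr3L:11487471-11487906, 139 bp). The list of ecdysone response and nuclear receptor genes had 4 of 9, with Hr78 (rank 411) next to Eip75B. The list of glycolytic enzyme genes, which also held some enzymes next to the pathway, had 3 of 10. Pgk (ranks 2060 and 2245) was the one glycolytic enzyme gene of these, while Gpdh1 encodes glycerol-3-phosphate dehydrogenase (rank 1890, 101 bp) and Pdk encodes pyruvate dehydrogenase kinase (rank 1886, 161 bp).

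Among chromatin regulators, Polycomb and trithorax group genes had 5 of 22, with ph-p (rank 29), E(z) (rank 618) and Trl, which encodes GAGA factor (rank 746, chr3L:14757115-14757293, 150 bp). Insulator and architectural protein genes had 1 of 9, Chro. RNA polymerase II transcription and pausing genes had 2 of 15, CycT, a subunit of the elongation kinase P-TEFb (rank 944, 193 bp), and Polr2K, a polymerase subunit (rank 3085, 287 bp, in a coding exon). Splicing and RNA-binding factor genes had 7 of 26, among them the sex determination gene Sxl (rank 690, chrX:7096422-7096857, 426 bp), B52 (rank 1050) and Rm62 (rank 1180). Heat shock protein and chaperone genes had 2 of 12, DnaJ-1 (rank 1710) and Droj2 (rank 3301).

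Each list of developmental genes held only 3 to 24 genes with a pooled summit in the window, so the counts of members are small. The shares ran from 0% for Hox genes to 30% for segmentation and dorsoventral patterning genes, beside 15% over all genes. Segmentation and dorsoventral patterning genes had 3 of 10: the gap gene hb (rank 797, chr3R:8694203-8694387, 278 bp), the pair-rule gene hry (rank 1822, 67 bp) and pyr, which encodes a fibroblast growth factor (rank 2623, 18 bp). Hox genes had 0 of 3. Signalling genes of the EGFR, Wnt, Notch, Hedgehog and Dpp pathways had 3 of 24: pan, the Wnt pathway's DNA-binding factor (rank 1942, chr4:69261-69696), mam, a Notch co-activator (rank 2568), and rho, an activator of EGFR ligands (rank 2593). Neural regulators had 2 of 12, emc (rank 1802, 8 bp) and da (rank 2200, 260 bp). Mesoderm and muscle genes had 3 of 11, the integrin genes mys (rank 1885) and if (rank 3518) and the muscle transcription factor gene Mef2 (rank 3269).

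Among the remaining lists, actin, tubulin and cytoskeleton genes had 5 of 24, all within 100 bp, including shot (rank 1493, 12 bp) and alphaTub84B (rank 1559, 28 bp). Cell cycle genes had 2 of 16, Dp, the partner of E2F (rank 1326, 434 bp), and dpa, an MCM subunit gene (rank 1488, 128 bp). Nucleotide synthesis genes had 1 of 11, Adk3 (rank 3015, 59 bp).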

How the data were processed

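Peak lists on dm6 from 3 embryo samples of 1 group were used. Per the submitters' file list, each replicate's list came from its alignments and 1 control file, a pooled list from all 3 replicates, and the optimal list from both by irreproducible discovery rate. The aligner, caller, threshold and read depth are not given in the sources used here, so the precision from depth is unknown. The deposited lists give each peak's signal, which is the authors' own value and comparable within a list only, a deposited −log10 q-value, not used in a test, and a summit offset. Lists on dm3 were not used.

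The TSSs were the 19607 starts of protein-coding transcripts of 13945 genes in the Ensembl annotation of Release 6, and a summit took its nearest one. Where annotations overlapped, a 5' untranslated region took precedence over a coding exon, and that over an intron. Shares were compared by two-sided Fisher's exact tests (scipy 1.17.1; 0.5 added for odds ratios) with Benjamini-Hochberg adjustment per family and a threshold of 0.05, which were tested on simulated data. Differences within replicates had an exact sign-flip test. Motifs and 6-mers were searched in 201 bp. The strongest peak of a replicate with its summit within 200 bp was taken as matching, even where another peak lay nearer.

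Nothing in the labels beyond the word biological says how far the replicates were separate. The members and gene lists were chosen with earlier results of these data known. Named genes were the 15 strongest members, up to 3 per gene list and per motif that passed, those nearest each limit of the rule, and the 3 with the widest spread of summits or ranks. CG33725, pAbp, RIC-3, Bhmt, PIG-Q and further summits of Eip75B, Pgk and scramb2 were chosen after their values were seen. Alternatives changed the comparison set, the TSS definition, the window, the sequence width, the base composition and the replicates. Sequences on 2R are not printed.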

Additional observations from a re-analysis of the deposited data

How the results depend on the processing

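Peak lists hold no read counts, so depth, and the precision it gives, is unknown, and absence from the optimal list does not show absence of binding. The tests treat regions as units, although neighbouring regions and all lists share the same 3 libraries. Top and remaining summits were paired within each replicate, and 3 pairs allow no p below 0.25 in an exact sign-flip test. Members and the weaker summits differ in distance from the TSS, and the alternatives limited to 0 to 100 bp, to 5' untranslated regions and to first introns, and the tests of A and T runs and of 6-mers against upstream summits, were chosen after seeing the data.

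The excess of members within 100 bp of the TSS (0.40 to 1.24) kept its direction and call under each of the 8 alternatives run. The lower share in coding exons was called under each except summits within 100 bp (-1.06). Of 2 neighbourhood properties, 1 was called against the first 10000 pooled ranks, with 1 TSS per gene and in a window of 250 bp. With 1 TSS per gene a second TSS cannot exist.

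Of the 24 motifs against other downstream summits, 2 were called, against 4 with 50 bp of sequence, 7 with 200 bp, 1 at 35% to 50% G and C and 1 within 100 bp of the TSS. The lower share of the Ttk69 core at members kept its call under every alternative run, and the higher share of the TATA box lost its call at 35% to 50% G and C and within 100 bp of the TSS. Of the 6-mers 123 were called, against 6 with the first 10000 ranks, 41 with the stronger members, 5 in the window of 250 bp, 45 with 50 bp of sequence, 0 at 35% to 50% G and C (146 at an unadjusted p under 0.05, Fisher's exact test), 1 within 100 bp and 0 in 5' untranslated regions (146). Without 1 replicate, which left 292 to 326 members against the same comparison summits, 64 to 79 were called.

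Against upstream optimal summits 6 motifs were called, against 3 in the window of 250 bp, 3 with 50 bp of sequence, 1 at 35% to 50% G and C and 0 within 100 bp (4 at an unadjusted p under 0.05, Fisher's exact test). Of the 6-mers 369 were called, against 85 with the stronger members, 196 with 50 bp of sequence, 15 at 35% to 50% G and C and 0 within 100 bp (161), and 159 to 201 without 1 replicate.

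The downstream share of top minus other summits was -18.5 points, and -24.3 with 2000 top peaks, -16.0 in the window of 250 bp and -14.5 with 1 TSS per gene. The direction turned at 401 to 500 bp against the first 10000 ranks (0.19) and at 35% to 50% G and C for A and T runs (-0.16). Within 100 bp of the TSS it turned for 5' untranslated regions (-0.12), for A and T runs (-0.069) and for intervals that reach the TSS (-5.75). The last value rests on the narrower peaks alone, since a full-width interval cannot miss a TSS that close. The cause was not tested.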
